A study of Homo sapiens with 6 samples.

Results

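The 9 genes described here make up a short cut through transforming growth factor beta (TGF-beta) signalling: the ligand genes TGFB1 and TGFB2, the receptor genes TGFBR1 and TGFBR2, the transducer gene SMAD3, the inhibitor genes SMAD7, SKIL and PMEPA1, and the matrix protein gene TGFBI. They were found by gene symbol, from a list drawn up when earlier results of these data were known, and each symbol matched 1 row of a deposited table of 58302 genes. All 9 passed the filter on low values, set at 0.5 FPKM on average and passed by 15620 genes. FPKM is the number of sequenced fragments scaled to transcript length and library depth, so that levels of genes of unequal length can be compared. The samples were cultures of MHCC97H, a human hepatocellular carcinoma cell line, grown in medium with fetal bovine serum. A control line carrying a non-target CRISPR/Cas9 construct was compared with a line in which CRISPR/Cas9 had been directed at DDX17, a DEAD-box RNA helicase gene, with 3 libraries of total RNA in each group. The labels do not say whether a line was 1 clone or a pool, or whether libraries came from separate cultures, and p-values here reflect only library-to-library spread, which may be technical.

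TGF-beta ligands are secreted in a latent form that is tethered to the matrix by latent TGF-beta binding proteins and must be released before they can act. The active ligand brings together a type II receptor, which is always active as a kinase, and a type I receptor, which then phosphorylates SMAD2 and SMAD3. These join SMAD4, enter the nucleus and switch on target genes, among them the pathway's own inhibitors SMAD7, SKIL and PMEPA1. In liver epithelium the pathway is known for restraining growth, and in liver cancer cells also for promoting matrix production and invasion.

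The libraries differed in depth, and 2 of them stood apart. The steps between low FPKM values put the control libraries at 12340000 to 14530000 fragments and the DDX17 knockout libraries at 5350000 to 10600000, with replicate 2 the shallowest. DDX17 itself lay between 41.4 and 45.7 FPKM in controls and between 7.64 and 22.4 FPKM in the knockout, lowest in replicate 2, and its p was 0.1 by exact permutation (two-sided), the lowest possible for 3 against 3 libraries. Both libraries numbered 2 deviated from their groups towards GC-rich transcripts, with Spearman correlations across genes of 0.58 in control replicate 2 and 0.53 in knockout replicate 2, against -0.53 to -0.32 in the other libraries. The cell line was checked against marker lists. Of 5 epithelial markers only KRT8 and KRT18 reached a mean of 0.5 FPKM. They made up nearly all of the epithelial sum, 284 to 338 FPKM in controls and 255 to 408 FPKM in the knockout. KRT19, EPCAM and CDH1 did not reach that mean, and KRT19 and EPCAM were lower in every knockout library than in every control. Of 14 liver markers, ALB and AFP included, 0 reached a mean of 0.5 FPKM. The liver sum was 0.996 to 1.19 FPKM in controls and 0.0372 to 0.0439 FPKM in the knockout. The red cell sum, from 7 genes, was 54.0 to 69.6 FPKM in controls and 0.0211 to 0.673 FPKM in the knockout. Of the fibroblast and stellate cell markers, 5 of 9 passed 0.5 FPKM and the list summed to 40.2 to 48.5 FPKM in controls and 50.5 to 92.0 FPKM in the knockout. Its members went both ways: COL3A1 was higher in every knockout library, at 27.2 to 79.8 FPKM against 20.46 to 25.6, while COL1A1, at 6.11 to 11.5 against 12.4 to 15.7, and PDGFRB, at 0.626 to 1.18 against 1.35 to 1.79, were lower in every one. The leukocyte sum was 1.62 to 1.91 and 2.26 to 3.62 FPKM and the endothelial sum 0.562 to 0.753 and 0.239 to 0.498 FPKM in controls and knockout. The part of these differences in the results below was not tested. In RNA of a whole culture, fewer cells that express a gene and less RNA per cell cannot be told apart.

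**Figure D1:**
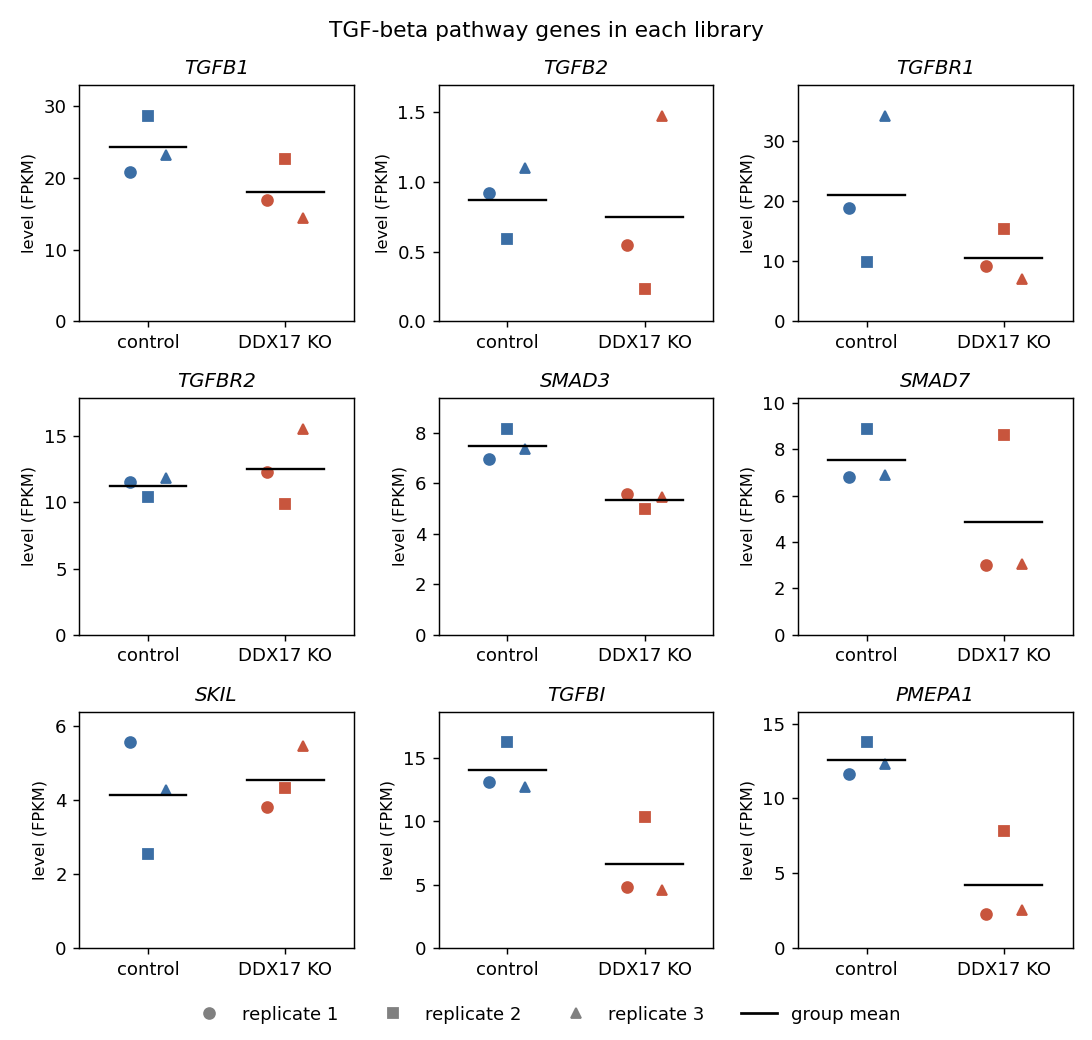
Level of each of the 9 genes in FPKM (vertical axis, from 0) in every control and DDX17 knockout library; points are libraries, shapes are replicate numbers and lines are group means. SMAD3, TGFBI and PMEPA1 were lower in every knockout library than in every control library, and in SMAD7 knockout replicate 2 lay among the controls.

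Among the 9 genes, the inhibitor gene PMEPA1 and the matrix gene TGFBI stood lowest in the knockout relative to the controls, SMAD3 was lower by less, and the receptor gene TGFBR2 and the inhibitor gene SKIL lay near the control level. With all 6 libraries, 0 of the 9 passed an adjusted p of 0.05 by limma with Benjamini-Hochberg adjustment over 15620 genes, where 0.0384% of all genes passed, all of them lower in the knockout. An unadjusted limma p under 0.05 was reached by 3 of the 9, PMEPA1, TGFBI and SMAD3, all lower in the knockout, against 13.5% of all genes, 7.19% lower and 6.31% higher. In these 3 the groups did not overlap and the knockout was lower, against 12.6% of all genes that were lower without overlap and 20.7% in either direction. In 7 of the 9 the log2 fold change was below 0, against 52.5% of all genes, and the median was -0.42 beside -0.03 for all tested genes. Without knockout replicate 2, the genes PMEPA1, TGFBI and SMAD7 fell at an adjusted p of 0.05. These were 3 of 9, beside 1.72% of all genes that were lower and 3.66% in either direction in that fit. With any other single library left out, 0 of the 9 passed, and the limma adjusted p of PMEPA1 ran from 0.46 to 0.79. Fold changes are the knockout minus the control mean of log2(FPKM + 1), a scale that understates changes of low genes.

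**Figure D2:**
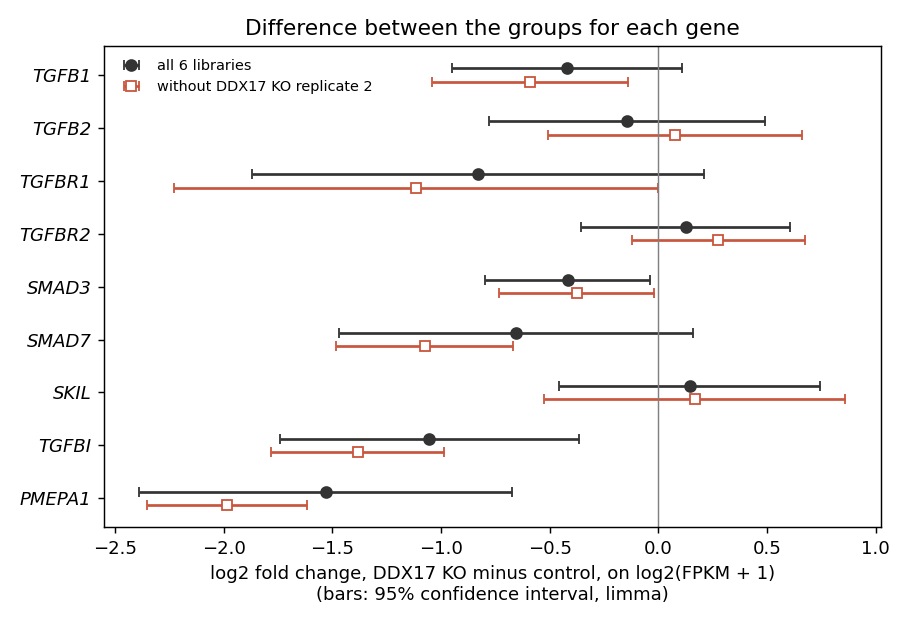
Log2 fold change of the knockout against the control on log2(FPKM + 1) (horizontal axis) for each of the 9 genes (vertical axis), with 95% confidence intervals from limma, for all 6 libraries (filled circles) and without knockout replicate 2 (open squares). PMEPA1 lies farthest to the left at -1.53, and leaving out the library moves it to -1.99 and SMAD7 from -0.66 to -1.08.

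TGFB1, the main secreted ligand (ENSG00000105329, hg38 chromosome 19, 41301587 to 41353911), was the most abundant of the 9 genes in both groups. Control replicates 1, 2 and 3 held 20.8, 28.6 and 23.2 FPKM, and knockout replicates 1, 2 and 3 held 17.0, 22.6 and 14.3 FPKM. Knockout replicates 1 and 3 lay below every control, replicate 2 lay among the controls, and in each group the library numbered 2 was the highest. TGFB1 thus had a log2 fold change of -0.42 (SE 0.23, limma adjusted p 0.408). TGFB1 has a GC-rich transcript, at 63.5%, and after a correction for GC content and length its log2 fold change was -0.06. HNRNPUL1, an RNA-binding protein gene on the opposite strand, shares 215 exon bases with TGFB1 in GENCODE 29, and the sources used here do not say that fragments were counted by strand. HNRNPUL1 had 33.2 ± 5.71 FPKM in controls against 25.1 ± 5.70 FPKM in the knockout (SD, n = 3 each).

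TGFB2, the second ligand (ENSG00000092969, chromosome 1, 218346235 to 218444619), was the least abundant of the 9. Its control values were 0.918, 0.588 and 1.10 FPKM, and its knockout values 0.548, 0.235 and 1.48 FPKM in replicates 1, 2 and 3. The knockout held both the lowest and the highest library, so that the groups overlapped. If every fragment fell on the longest transcript, the lowest value stood for at most 6 fragments and the highest for at most 61. TGFB2 differed by -0.15 on the log2 scale, with a 95% confidence interval from -0.78 to 0.49 by limma, and it was 0.08 without knockout replicate 2. TGFB2-OT1, a noncoding RNA annotated on the same strand within TGFB2, shares 1371 exon bases with it. TGFB2-OT1 stood at 0.237, 0.105 and 0.1003 FPKM in controls against 0.206, 1.499 and 0.267 FPKM in knockout replicates 1, 2 and 3. It was thus highest in the library where TGFB2 was lowest, and how fragments were divided between these overlapping genes is not given in the sources used here.

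Levels of the type I receptor gene TGFBR1 (ENSG00000106799, chromosome 9, 99104038 to 99154192) varied widely among controls. Control replicates 1, 2 and 3 held 18.8, 9.78 and 34.1 FPKM, and knockout replicates 1, 2 and 3 held 9.17, 15.4 and 7.03 FPKM. The highest control was over the lowest by more than the whole range of the knockout, and the groups overlapped through control replicate 2 and knockout replicate 2. Knockout replicates 1 and 3 lay below every control. The group means of TGFBR1 were 20.9 ± 12.3 and 10.5 ± 4.32 FPKM (SD, n = 3 each), a log2 fold change of -0.83 with a 95% confidence interval from -1.87 to 0.21 and a limma adjusted p of 0.407. Without single libraries it ran from -1.26 to -0.41.

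TGFBR2, the type II receptor gene (ENSG00000163513, chromosome 3, 30606502 to 30694142), differed little between the groups. The controls held 11.6, 10.4 and 11.9 FPKM and the knockout 12.3, 9.85 and 15.5 FPKM in replicates 1, 2 and 3. Knockout replicates 1 and 3 lay above every control and replicate 2 below every control. TGFBR2 had a log2 fold change of 0.13 with a 95% confidence interval from -0.36 to 0.61 and a limma adjusted p of 0.764, and it turned to -0.03 without knockout replicate 3. In controls the mean of TGFBR1 was above that of TGFBR2, at 20.9 against 11.3 FPKM, and in the knockout it was below, at 10.5 against 12.6 FPKM, but the ranges of the receptor genes overlapped in both groups.

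SMAD3, which encodes the transducer that carries the receptor signal to DNA (ENSG00000166949, chromosome 15, 67063763 to 67195195), was lower in all knockout libraries and varied little within a group. Its controls held 6.98, 8.15 and 7.35 FPKM, and knockout replicates 1, 2 and 3 held 5.60, 4.99 and 5.47 FPKM. Knockout replicate 2 was the lowest library here, unlike in the target genes described next. The log2 fold change of SMAD3 was -0.42 with a 95% confidence interval from -0.80 to -0.04, but its limma adjusted p was 0.369. It ran from -0.46 to -0.36 with single libraries left out, and it was -0.35 after the correction for GC content and length. An antisense gene, AC087482.1, shares 182 exon bases with SMAD3 and stood between 0.0503 and 0.175 FPKM in the libraries.

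The inhibitor gene SMAD7 (ENSG00000101665, chromosome 18, 48919853 to 48950711), whose protein occupies the type I receptor and recruits ubiquitin ligases to it, had control values of 6.80, 8.87 and 6.88 FPKM. Knockout replicates 1, 2 and 3 held 3.00, 8.61 and 3.03 FPKM. Replicates 1 and 3 were close to each other and below every control, while replicate 2 lay just under the highest control. SMAD7 had a log2 fold change of -0.66 (SE 0.35, limma adjusted p 0.405). Without knockout replicate 2 the change was -1.08 (adjusted p 0.0359). The correction for GC content and length moved the value with all libraries to -0.38, and the SMAD7 transcript holds 58.7% GC.

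SKIL encodes SnoN, a nuclear repressor that binds SMAD proteins (ENSG00000136603, chromosome 3, 170357678 to 170396835). The controls held 5.55, 2.55 and 4.27 FPKM and the knockout 3.81, 4.31 and 5.46 FPKM in replicates 1, 2 and 3. All knockout values lay within the control range. SKIL differed by 0.14 on the log2 scale, with a 95% confidence interval from -0.46 to 0.74 and a limma adjusted p of 0.786. Its transcript has the lowest GC content of the 9, at 33.4%, and the value was -0.16 after the correction for GC content and length and -0.10 without control replicate 2. SKIL and SMAD7 are both SMAD-induced inhibitors. In knockout replicates 1 and 3 SMAD7 lay below every control and SKIL within the control range, and the cause was not tested.

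TGFBI, named for its induction by TGF-beta, encodes a secreted matrix protein that binds collagen and integrins (ENSG00000120708, chromosome 5, 136028895 to 136063818). Its controls held 13.1, 16.2 and 12.7 FPKM, and knockout replicates 1, 2 and 3 held 4.82, 10.4 and 4.61 FPKM. Every knockout library was below every control, with replicate 2 between the controls and the other knockout libraries. The log2 fold change of TGFBI was -1.05 with a 95% confidence interval from -1.74 to -0.37 and a limma adjusted p of 0.315. Leaving out knockout replicate 2 gave -1.38 (limma adjusted p 0.0264).

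PMEPA1 encodes a membrane protein that sequesters SMAD2 and SMAD3 and recruits ubiquitin ligases (ENSG00000124225, chromosome 20, 57648392 to 57711536). It showed the largest difference of the 9 genes. The controls held 11.6, 13.7 and 12.3 FPKM, and knockout replicates 1, 2 and 3 held 2.27, 7.81 and 2.55 FPKM. All knockout libraries were below all controls, and again replicate 2 lay between. The group means of PMEPA1 were 12.5 ± 1.10 and 4.21 ± 3.12 FPKM (SD, n = 3 each), a log2 fold change of -1.53 with a 95% confidence interval from -2.39 to -0.67. The limma adjusted p was 0.279 with all libraries and 0.00945 without knockout replicate 2, where the log2 fold change was -1.99.

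NKILA, a long noncoding RNA gene on the strand opposite PMEPA1, shares 343 exon bases with it and was singled out after its values were seen. Its controls held 1.47, 1.56 and 1.32 FPKM, and knockout replicates 1, 2 and 3 held 0.210, 1.61 and 0.311 FPKM. Knockout replicates 1 and 3 were low and replicate 2 was the highest of the 6 libraries. NKILA had a log2 fold change of -0.61 (limma adjusted p 0.384), and of -0.96 (0.0343) without knockout replicate 2. Without a stated strand setting, fragments of PMEPA1 and NKILA cannot be told apart in the shared exon.

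**Figure D3:**
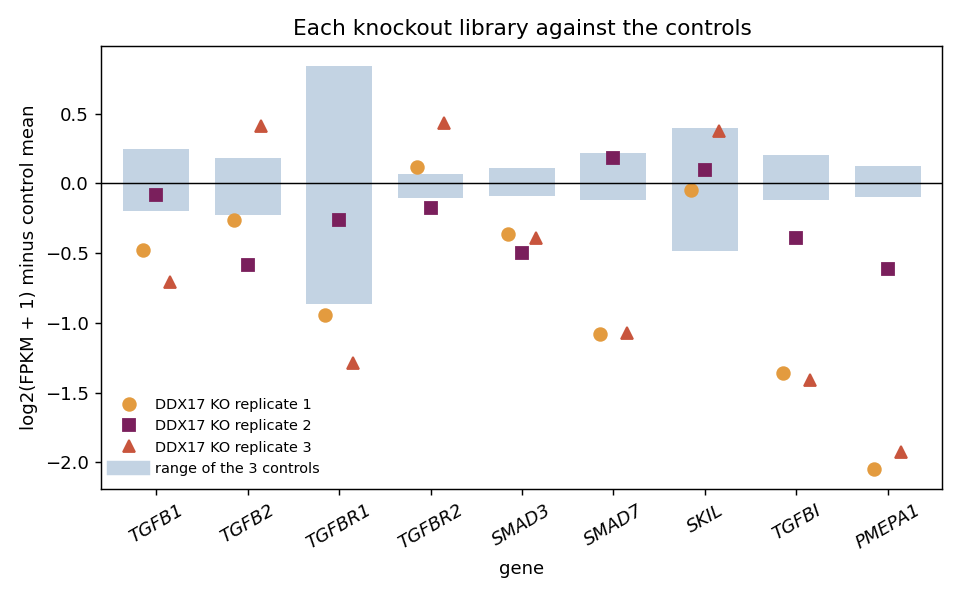
Difference of each knockout library from the control mean on log2(FPKM + 1) (vertical axis) for the 9 genes (horizontal axis); bars span the 3 control libraries. In PMEPA1, TGFBI and SMAD7 replicates 1 and 3 lie together, from -2.05 to -1.93 in PMEPA1, while replicate 2 lies at -0.62 in PMEPA1, -0.39 in TGFBI and 0.18 in SMAD7.

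Across the 9 genes, knockout replicate 2 lay nearer to the control mean than to the mean of the other knockout libraries in 7, all but SMAD3 and SKIL. Over all tested genes the same held for 67.8%, so this was the position of the library in general. In PMEPA1, replicates 1, 2 and 3 lay at -2.05, -0.62 and -1.93 from the control mean on the log2 scale. TGFBI had -1.36, -0.39 and -1.41, and SMAD7 had -1.08, 0.18 and -1.07. In these 3 genes replicates 1 and 3 lay together, and replicate 2, the library with the least DDX17 RNA, was the closest to the controls. Replicate 2 was also the closest in TGFBR1, at -0.945, -0.26 and -1.29, and in TGFB1, at -0.48, -0.08 and -0.71.

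Start regions are shown for PMEPA1, TGFBI and SMAD7, the genes of the 9 that passed the limma threshold without knockout replicate 2. SMAD complexes are known to act at gene starts. They come from RefSeq on GRCh38.p14, which gave 26 windows of 300 bases, from 250 bases before to 50 after an annotated transcript start, for all 9 genes. Printed for each start of these 3 genes is the longest unbroken part of the 250 upstream bases that lies outside every annotated exon. This leaves out 2 of 4 PMEPA1 starts and 1 of 3 SMAD7 starts, which have no such part. The stretches are written 5′ to 3′ on the gene's strand. Capitals mark CAGAC or its reverse complement GTCTG, the letters of the SMAD box. Each is named by its transcript start, and they are PMEPA1 at chr20:57710016-57710182 and chr20:57690687-57690936, both on the minus strand, TGFBI at chr5:136028738-136028894 on the plus strand, and SMAD7 at chr18:48949334-48949583 and chr18:48942808-48943057, both on the minus strand.
PMEPA1 start 57710015: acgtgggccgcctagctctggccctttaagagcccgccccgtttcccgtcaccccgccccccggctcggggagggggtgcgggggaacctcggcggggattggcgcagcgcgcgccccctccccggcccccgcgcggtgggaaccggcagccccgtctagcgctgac
PMEPA1 start 57690686: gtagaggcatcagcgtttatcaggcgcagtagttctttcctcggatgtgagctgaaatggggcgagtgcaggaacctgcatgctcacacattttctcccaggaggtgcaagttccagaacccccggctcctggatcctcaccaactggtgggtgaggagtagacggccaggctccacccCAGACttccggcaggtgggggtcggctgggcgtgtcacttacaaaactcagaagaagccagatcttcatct
TGFBI start 136028988: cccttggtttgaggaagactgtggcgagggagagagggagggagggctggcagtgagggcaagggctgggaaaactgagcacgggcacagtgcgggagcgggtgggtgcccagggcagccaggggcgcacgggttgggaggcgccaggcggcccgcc
SMAD7 start 48949333: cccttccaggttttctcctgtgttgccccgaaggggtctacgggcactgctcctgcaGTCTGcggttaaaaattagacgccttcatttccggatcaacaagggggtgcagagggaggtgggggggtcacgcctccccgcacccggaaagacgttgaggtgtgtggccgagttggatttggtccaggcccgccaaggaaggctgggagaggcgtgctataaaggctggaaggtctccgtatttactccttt
SMAD7 start 48942807: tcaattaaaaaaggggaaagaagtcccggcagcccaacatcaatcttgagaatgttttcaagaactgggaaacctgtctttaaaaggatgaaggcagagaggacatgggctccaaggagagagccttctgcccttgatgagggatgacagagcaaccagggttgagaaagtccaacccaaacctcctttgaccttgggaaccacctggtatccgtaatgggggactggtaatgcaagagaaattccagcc
The match in SMAD7 begins 193 bases before start 48949333, the match in PMEPA1 begins 71 bases before start 57690686, and the other 3 printed stretches hold none. Over the whole windows of 300 bases, exons included, matches were found in 3 of 4 windows of PMEPA1, with 2 in that of start 57710015, in 2 of 3 of SMAD7 and in 0 of 1 of TGFBI. Of the 26 windows, 14 held CAGAC or GTCTG, beside 45.3% of all 35116 windows. The palindrome GTCTAGAC was found in 0 of the 26 and in 0.202% of all windows, and TGANTCA, the AP-1 site, in 2 of the 26, 1 each at TGFBR2 and SMAD3, and in 7.71% of all windows. Both strands were searched, no motif contains another, and a match in letters does not show binding.

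Ordered by their control means, the genes ran from TGFB1 at 24.2 FPKM through TGFBR1 at 20.9, TGFBI at 14.0, PMEPA1 at 12.5, TGFBR2 at 11.3, SMAD7 at 7.51, SMAD3 at 7.49 and SKIL at 4.12 to TGFB2 at 0.869 FPKM. The ranges of neighbours overlapped from TGFB1 down to TGFBR2 and between SMAD7 and SMAD3. They did not overlap between TGFBR2 and SMAD7, between SMAD3 and SKIL, and between SKIL and TGFB2. In the knockout the means ran from TGFB1 at 18.0 FPKM to TGFB2 at 0.753 FPKM, and PMEPA1 stood eighth at 4.21 FPKM after being the fourth in controls. The ranges of all neighbours in that order overlapped except those of PMEPA1 and TGFB2.

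The genes with the most similar profile over the 6 libraries were found for the 3 genes whose groups did not overlap, among 5566 genes that averaged 5 FPKM or more. Likeness was the root mean square difference between log2(FPKM + 1) deviations from each gene's own mean. ARHGEF5, a guanine nucleotide exchange factor gene, was nearest to SMAD3 at 0.039, followed by SNX9, a sorting nexin gene, at 0.050. FASN, the fatty acid synthase gene, was nearest to TGFBI at 0.061, with 94.6, 125 and 105 FPKM in controls against 43.7, 81.1 and 40.2 FPKM in knockout replicates 1, 2 and 3. CYTH1, which encodes cytohesin 1, followed at 0.083. CSRNP1, an early response gene of a nuclear protein, was nearest to PMEPA1 at 0.109, with 12.7, 17.8 and 13.7 FPKM in controls against 2.83, 9.15 and 3.76 FPKM in the knockout, and the pseudogene RPSAP51 followed at 0.160.

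The rest of the pathway was read from lists by role. The genes that hold the ligand latent or release it had values on both sides of 0. Of 12 listed, 8 were tested, 0 passed with limma, 5 lay below 0 and 3 above, and the median log2 fold change was -0.34 beside -0.03 for all genes. In 4 of the 8 the groups did not overlap, all lower, beside 12.6% of all genes. FURIN, the protease that cleaves the ligand precursors, was the most abundant of them at 34.1 ± 5.42 FPKM in controls against 18.7 ± 3.56 FPKM in the knockout, and THBS1, the thrombospondin that activates latent TGF-beta, had 14.3 ± 3.09 and 12.2 ± 6.05 FPKM (SD, n = 3 each). Their limma adjusted p was 0.293 and 0.669.

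LTBP1, a latent TGF-beta binding protein gene singled out after its values were seen, was almost at 0 in knockout replicates 1 and 3. It stood at 1.96, 1.92 and 1.82 FPKM in controls against 0.0137, 0.750 and 0.0178 FPKM in knockout replicates 1, 2 and 3. The lowest values stood for at most 1 fragment each, replicate 2 for at most 25, and the controls for at most 153 to 170. The limma adjusted p of LTBP1 was 0.192 with all libraries and 0.0155 without knockout replicate 2. The integrin genes ITGAV and ITGB8, whose proteins bind the latent complex, lay above the controls in knockout replicates 1 and 3. ITGB6, the other integrin gene of the list, did not. It held 0.645, 0.223 and 0.614 FPKM in controls against 0.407, 0.269 and 1.11 FPKM in the knockout, and its groups overlapped. ITGB8 held 1.02, 0.429 and 0.789 FPKM in controls against 3.995, 0.337 and 4.07 FPKM in the knockout, and without replicate 2 it rose, at a limma adjusted p of 0.0273 and a log2 fold change of 1.54.

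Receptor and SMAD genes outside the 9 did not pass the test in either direction. Of 6 further receptor and co-receptor genes, 4 were tested, with a median log2 fold change of 0.27, 1 below 0 and 3 above. ENG, the endoglin co-receptor gene and the most abundant, had 14.3 ± 2.23 FPKM in controls against 9.22 ± 2.01 FPKM in the knockout, and BMPR2, a type II receptor gene of the BMP branch, 2.95 ± 1.02 and 5.49 ± 2.95 FPKM (SD, n = 3 each). Their limma adjusted p was 0.367 and 0.464. ENG was the 1 gene of the 4 whose groups did not overlap, lower in the knockout beside 12.6% of all genes. All 6 further SMAD genes were tested, 2 below 0 and 4 above, with a median of 0.23. SMAD6, the inhibitor in the BMP branch, was the most abundant at 15.5 ± 2.15 and 14.2 ± 5.13 FPKM, and SMAD2, the partner of SMAD3, had 4.99 ± 1.43 and 7.76 ± 2.50 FPKM (SD, n = 3 each; limma adjusted p 0.766 and 0.409). After the correction for GC content and length both medians were -0.01.

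Partners of the SMAD proteins and inhibitors beyond the 9 also held 0 genes past the limma threshold. Of 9 partner genes tested among 11 listed, 4 lay below 0 and 5 above, with a median of 0.19. STRAP, which stabilises SMAD7 at the receptor, had 78.5 ± 6.05 and 72.3 ± 8.44 FPKM, and SNW1, a nuclear partner of SMAD proteins, 10.9 ± 3.20 and 15.5 ± 1.66 FPKM in controls and knockout (SD, n = 3 each; limma adjusted p 0.745 and 0.379). SNW1 was the 1 gene of the list with groups that did not overlap, higher in the knockout beside 8.09% of all genes. Of 11 inhibitor genes tested among 13 listed, 6 lay below 0 and 5 above, with a median of -0.11. In 2 of the 11, SKI and SMURF1, the groups did not overlap, both lower in the knockout, beside 12.6% of all genes. SKI, the paralogue of SKIL, had 19.5 ± 3.21 FPKM in controls against 13.3 ± 2.47 FPKM in the knockout, and the ubiquitin ligase gene WWP1 had 9.18 ± 3.10 and 14.2 ± 6.11 FPKM (SD, n = 3 each; limma adjusted p 0.369 and 0.498).

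**Figure D4:**
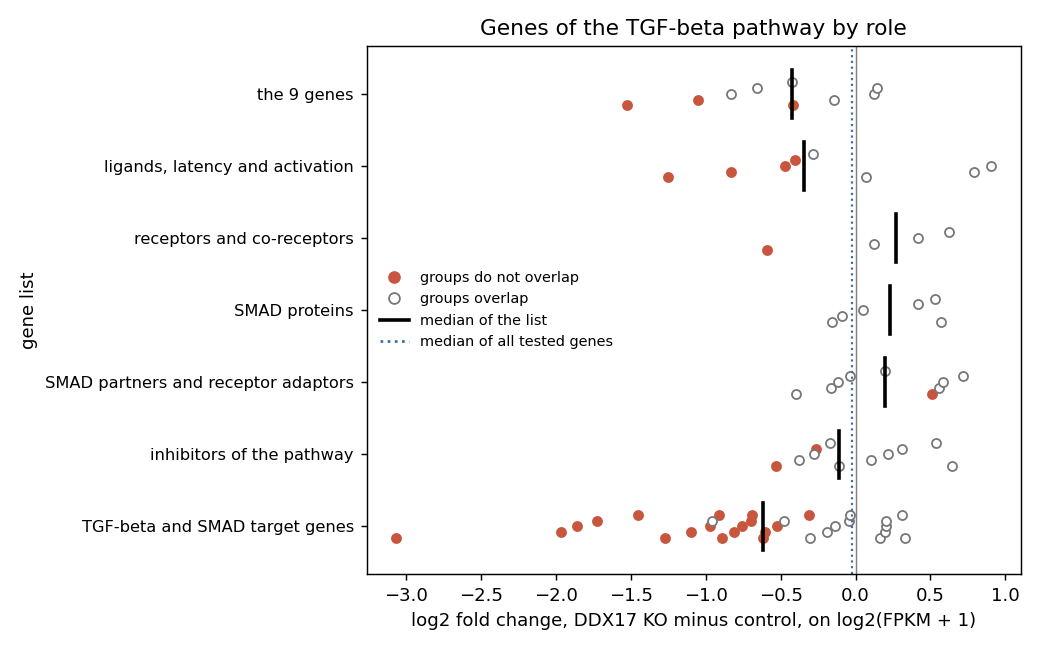
Log2 fold change on log2(FPKM + 1) (horizontal axis) of every tested gene of the pathway by role (vertical axis); filled points are genes whose groups did not overlap, black lines are list medians and the dotted line is the median of all tested genes. The target list has a median of -0.62 and the SMAD list one of 0.23.

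Target genes of the pathway mostly had values below 0. Of 38 listed, 31 were tested, 25 lay below 0 and 6 above, and the median log2 fold change was -0.62 beside -0.03 for all genes. In 18 of the 31 the groups did not overlap, all lower, beside 12.6% of all genes. By limma with adjustment over all genes 1 fell, FSTL3, which encodes a secreted binder of activins, with a log2 fold change of -3.07 and an adjusted p of 0.013, beside 0.0384% of all genes. Without knockout replicate 2, 11 of the 31 fell and 0 rose, beside 1.72% and 1.95% of all genes. The list was drawn up when results for some of its genes in these libraries were known, and COL1A1 and ACTA2 in it are also fibroblast markers.

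The following target genes were singled out after their values were seen. The cytokine gene IL11 held 2.73, 3.95 and 3.11 FPKM in controls against 0.104, 0.774 and 0.0673 FPKM in the knockout, the last for at most 1 fragment, with a limma adjusted p of 0.087. CDKN2B, the gene of the cell cycle inhibitor p15, held 8.37, 8.36 and 8.65 FPKM in controls against 3.22, 4.001 and 3.07 FPKM in the knockout, with an adjusted p of 0.104. In CDKN2B and in TNS1, the tensin 1 gene, replicate 2 lay close to the other knockout libraries: TNS1 held 4.62, 6.17 and 4.56 FPKM in controls against 0.926, 1.51 and 1.25 FPKM in the knockout, with an adjusted p of 0.0747. In ID1, a direct SMAD target, knockout replicates 1 and 3 lay below the controls and replicate 2 above them, at 126, 170 and 125 against 109, 176 and 94.6 FPKM. TSC22D1 held 13.4, 13.9 and 11.9 against 12.9, 16.0 and 9.66 FPKM, and its groups overlapped.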

How the data were processed

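RNA of 3 control and 3 DDX17 knockout libraries of MHCC97H cells was sequenced, and samples were grouped by their titles. Gene levels were deposited as FPKM by the authors in 1 table, a unit read from the values. CASAVA 1.8, HISAT2, StringTie, edgeR and hg38 are named, without roles, per the submitters' processing notes. How these were set, by which annotation and with which strand rule, is not given in the sources used here. Depth came from single-transcript genes, whose FPKM times length fell on whole multiples of a step in 99.6% to 99.7% of low values (within 0.05).

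Printed gene coordinates are those deposited with the levels. GENCODE 29 supplied lengths, GC content and exon overlaps, and RefSeq on GRCh38.p14 the start regions. For SMAD7 the GENCODE 29 locus extends to 48952052, beyond the deposited end of 48950711. limma 3.58.1 in R 4.3.3, checked on simulated data, was run on log2(FPKM + 1) with an intensity trend over the genes that averaged 0.5 FPKM or more, two-sided, with Benjamini-Hochberg adjustment and a threshold of 0.05. Intervals and p-values of single genes come from this fit. Summaries used Python 3.11.15 with pandas 2.3.3. The members and lists were chosen with earlier results of these data known. Besides the 9 genes and DDX17, the text names from each list up to 2 genes per direction past the threshold or, where none passed, the 2 with the highest mean. Other named genes were chosen after their values were seen, and 1 listed target gene is not reported here by name.

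Deviations of libraries with the same number correlated across genes at 0.3, 0.546 and 0.214 for replicates 1, 2 and 3, all over 0.1, which was the bar for treating the numbers as pairs, with no label behind it. Unlike numbers reached as much: control 1 with knockout 3 gave 0.329 and control 3 with knockout 1 gave 0.19, so only the libraries numbered 2 stood out as a pair. Alternatives were a replicate block, a correction for GC content and length, other pseudocounts, scalings, filters and variance models, and each library left out. Added after seeing the data were leaving out both libraries numbered 2, and the GC correction without knockout replicate 2.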

Additional observations from a re-analysis of the deposited data

How the results depend on the processing

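The depth limits the low genes: in the shallowest library TGFB2 rests on at most 6 fragments, and fragment numbers are upper estimates from the longest transcript. Leaving out single libraries with the tested genes kept, PMEPA1 had log2 fold changes from -1.99 to -1.27, TGFBI from -1.38 to -0.88 and SMAD7 from -1.08 to -0.44. Those of SKIL ran from -0.10 to 0.34, of TGFB2 from -0.43 to 0.076 and of TGFBR2 from -0.029 to 0.28. The number of the 9 genes called lower ran from 0 to 3, all genes called higher from 0 to 304 and all genes called lower from 3 to 268. List medians ran from 0.019 to 0.46 for SMAD partners and from -0.25 to 0.051 for inhibitors. The receptor median ran from 0.08 without knockout replicate 3 to 0.54 without knockout replicate 2, and the SMAD median from 0.095 without control replicate 2 to 0.42 without knockout replicate 2.

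Without both libraries numbered 2, the limma fit called 860 genes higher and 516 lower, among them 3 of the 9: PMEPA1 at -1.92, TGFBI at -1.28 and SMAD7 at -0.965. SKIL was -0.076 and the inhibitor median -0.039 there. With the GC correction and without knockout replicate 2, 118 genes were higher and 141 lower, 3 of the 9 among them: PMEPA1 at -1.75, TGFBI at -1.23 and SMAD7 at -0.72. SKIL was -0.39 there, and the medians were -0.12 for ligand and latency genes and -0.13 for SMAD genes.

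With the GC correction and all libraries, 1 gene was higher and 10 lower, SKIL was -0.16, and the medians were -0.14 for ligand and latency genes and -0.023 for inhibitors; with the replicate block added, these values for SKIL and both lists were the same. The replicate block alone left 0 of the 9 called, with an adjusted limma p of 0.0705 for PMEPA1 and 0.07 for TGFBI, and it changed no call among them. Over all genes 4 were called lower with it in place of 6, the calls lost being NCCRP1 and EDN1, at an adjusted p of 0.0655 each. The ligand and latency median was -0.50 with a pseudocount of 0.1 and -0.53 with 0.01, and the inhibitor median -0.075 with median-of-ratios scaling. Without a filter 3 genes were called lower. TGFB2 was not tested at a mean of at least 2 FPKM. The other values, 337 of 386, counted as unchanged by broad rules. For a gene this meant the same direction and side of the threshold, whatever the size. TGFB1, for example, was -0.422 in the main fit and -0.063 after the GC correction. For a list median or the DDX17 level ratio it meant a shift within the replicate spread, and for a count an equal or similar number. The cause of the changes was not tested.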

Other observations

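Several genes of the lists lay below the filter and were not tested. In control replicates 1, 2 and 3 the remaining ligand gene TGFB3 reached 0.417, 0.673 and 0.408 FPKM, and in the knockout 0.496, 0.567 and 0.434 FPKM, with overlapping groups. Control libraries held 0.602, 0.375 and 0.705 FPKM of FN1, the fibronectin gene and a common TGF-beta target. Knockout libraries held 0.196, 0.286 and 0.401 FPKM of FN1, and its groups overlapped through control replicate 2 and knockout replicate 3. For ANGPTL4, another target gene, controls held 0.193, 0.360 and 0.172 FPKM and the knockout 0.753, 0.351 and 0.548 FPKM, where replicates 1 and 3 lay above every control.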
